A study of Mus musculus with 27 samples.

Results

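The genes described here are 10 members of the Wnt pathway: the ligands Wnt3 and Wnt9a, the nuclear factors Tcf7 and Lef1, and the targets and feedback inhibitors Axin2, Sp5, Nkd1, Notum, Dkk1 and Rnf43. They were taken by gene symbol, and each of the 10 symbols matched 1 row among the 38352 genes of the deposited tables. All were followed in E14Tg2a cells, a wild-type mouse embryonic stem cell line, before and after a single exposure to hydrogen peroxide. The study asked how a transient oxidant exposure changes gene expression over the following day, using 3 time courses run independently.

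Poly(A) RNA was sequenced from 27 cultures, in 9 groups of 3. Untreated cells were taken at 0 h and at 24 h. Treated cells received 500 µM hydrogen peroxide for 30 min, in the unit of the treatment protocol, and were taken at 0.5, 2, 4, 6, 8, 10 and 24 h, the first of these as the exposure ended. The sources differ on the dose, as the text deposited with the series writes it in mM. Every group, treated or not, is the same wild-type line on gelatin in medium with serum, LIF and the 2i supplement. 2i is usually a pair of kinase inhibitors, 1 of which blocks GSK3, so these cells are grown with a drug that acts on the pathway described here. After the exposure the medium was exchanged for spent medium from untreated cells, and no group is labelled as having had that exchange alone. Treated groups up to 10 h are compared with untreated cells at 0 h, and the treated 24 h group with untreated cells at 24 h, so that culture time is matched at 24 h only.

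Wnt ligands bind Frizzled receptors and LRP co-receptors, which stops the destruction complex of Axin, APC and GSK3 from marking beta-catenin for breakdown. Beta-catenin then joins TCF/LEF proteins on DNA and raises target genes, several of which encode inhibitors of the same pathway. In mouse embryonic stem cells the pathway supports self-renewal, and in the embryo it is needed to form the primitive streak.

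Levels are in FPKM, a fragment count divided by transcript length and by all mapped fragments of the library, so they can be compared between genes, but the number of reads behind a value is unknown. Relative to untreated 0 h replicate 1, the spacing of the lowest values gives depths of 0.983 to 1.10. The 10 embryonic stem cell markers checked were all at 1 FPKM or more in every library, with summed levels of 2440 to 4470 FPKM. Most of that sum was Dppa5a and Pou5f1, with means of 1710 and 713 FPKM at untreated 0 h, and single markers differed. Mean Nanog went from 344 FPKM at untreated 0 h to 89.8 at 6 h, and Sox2 from 132 to 44.6 at 4 h. Esrrb was at 110 FPKM at untreated 0 h and 121 at 6 h. Untreated 0 h replicate 3, treated 2 h replicate 1, treated 8 h replicate 3 and treated 10 h replicate 3 stood apart from the other libraries of their groups, with more signal from GC-rich genes. The change in log2(FPKM + 1) per 10 points of GC content, against untreated 0 h replicates 1 and 2, was 0.192 to 0.357 in these 4, but also 0.13 to 0.205 in the 3 libraries at 4 h and 0.178 in untreated 24 h replicate 1. Member results that rest on the 4 libraries are also given without them, and other pathway genes where a call changes. The 14 hepatocyte markers summed to 45.2 to 70.9 FPKM in 9 libraries (all 3 at treated 0.5 h and at untreated 24 h, treated 6 h replicate 3, and treated 8 h replicates 1 and 2) and to 1.06 to 7.68 FPKM in the other 18, with Alb at 0 in some of these. Summed levels of the 5 astrocyte markers ran from 2.42 FPKM at untreated 0 h to 14.6 at 8 h, those of the 7 fibroblast markers from 0.693 to 2.11, and those of the 7 primitive endoderm markers from 1.17 to 3.12.

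Changes below are given as differences between group means of log2(FPKM + 1), with the standard error (SE) after ±. Adding 1 makes the change of a gene near or under 1 FPKM look smaller than its ratio. The test was limma over 13614 genes, those that reach 1 FPKM in 3 libraries or more, and a gene is called changed at a Benjamini-Hochberg adjusted p below 0.05. Axin2, Sp5, Tcf7, Notum, Wnt3 and Wnt9a passed that filter. Wnt3 and Wnt9a passed it only through the treated groups in which they were high, at 1 FPKM or more in 8 and 10 libraries, so that their being among the changed genes was partly built in. Lef1, Nkd1, Dkk1 and Rnf43 were above 0 in all 27 libraries but under 1 FPKM in each of them, and are described from a fit without the filter.

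The 6 tested members fell into 3 patterns. Both ligands were highest at 6 h, Axin2, Sp5 and Tcf7 at 8 to 10 h, and Notum was lowest at 8 h. At 0.5 h 0 of the 6 were called changed, against 0.0808% of all tested genes, at 2 h 0 of 6 against 1.07%, and between the untreated groups at 24 h and 0 h 0 of 6 against 0.705%. At an unadjusted p below 0.05 from limma, these 3 comparisons held 0, 1 (Sp5 at 2 h) and 0 members and 1352, 1033 and 1285 of all genes. The authors' deposited table marked 0 of the 6 at 0.5 h and 0 at 2 h. At 4 h 2 rose and 3 fell, where 14.2% of all genes rose and 12.1% fell (26.3% together). At 6 h 4 rose and 1 fell, where 22.3% and 20% of all genes did so (42.3%). At 8 h 5 rose and 1 fell (29.2% and 11.6% of all genes, 40.7% together), as at 10 h (22.2% and 9.43%, 31.7% together). At 24 h 1 of 6 was higher than in untreated cells of the same age (all genes 12.9%). Treated and untreated libraries did not overlap for 5 of the 6 members at 4 h and at 6 h, for 6 at 8 h and at 10 h, and for 4 at 24 h, beside 31.9%, 46.5%, 39.7%, 31.2% and 53.5% of all tested genes. Between successive times, 4 of 6 were called from 2 h to 4 h (all genes 20.1%) and 6 of 6 from 6 h to 8 h (24.1%), when both ligands and Notum fell while Axin2, Sp5 and Tcf7 rose. The median difference over the 6 members was 0.85 at 8 h and 0.66 at 10 h, beside 0.11 for all tested genes at either time. Wnt3 and Wnt9a, which passed the filter only through treated groups, are among the 6, and the members were chosen with earlier results known. Member counts and medians set beside those of all genes, here and below, were thus partly built in.

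**Figure D1:**
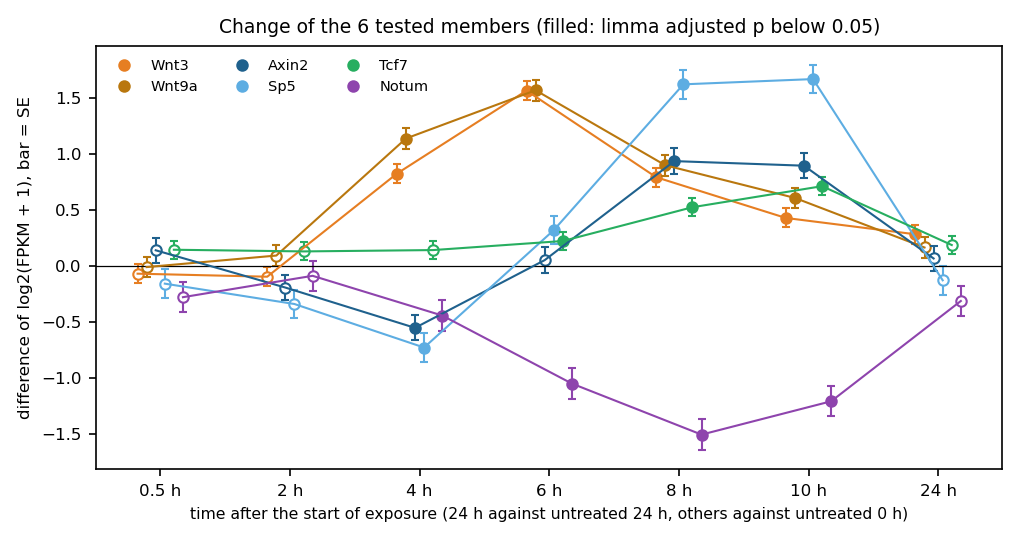
Difference of mean log2(FPKM + 1) from untreated cells (vertical axis, bars are SE) for the 6 tested members at each time after the start of exposure (horizontal axis); filled points passed the limma test. Wnt3 and Wnt9a peak at 6 h, Axin2, Sp5 and Tcf7 are highest at 8 and 10 h, and Notum reaches its lowest point at 8 h, while by 24 h only Wnt3 is called.

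Wnt3, a ligand that in the embryo is required for primitive streak formation, was scarcely expressed before the exposure and rose between 2 h and 6 h. Its level was 0.197, 0.299 and 0.245 FPKM in the 3 untreated 0 h libraries, 0.165, 0.222 and 0.184 at 0.5 h, and 0.219, 0.188 and 0.101 at 2 h. It then reached 1.57, 0.917 and 1.19 FPKM at 4 h and 2.77, 2.4 and 2.94 at 6 h. Every library at 4 h and at 6 h lay above every untreated 0 h library, while those at 0.5 h and 2 h overlapped them. Mean FPKM was 10.9-fold higher at 6 h than at 0 h, a log2 difference of 1.57 ± 0.085 (limma adjusted p 4.64e-12). From 6 h to 8 h Wnt3 fell by 0.77 (adjusted p 7.88e-07), to 1.12, 1.13 and 1.24 FPKM, and it was at 0.791, 0.583 and 0.675 at 10 h. These groups still lay wholly above untreated 0 h, by 0.80 (adjusted p 2.56e-07) and 0.43 (adjusted p 0.00058). At 24 h the treated libraries held 0.490, 0.496 and 0.443 FPKM and the untreated ones 0.259, 0.223 and 0.153, which do not overlap. That difference of 0.285 ± 0.085 was called (adjusted p 0.032), but leaving out any 1 of these 6 libraries ended the call, with adjusted p from 0.0543 to 0.135. Because 53.5% of all tested genes had treated and untreated 24 h libraries that do not overlap, the separation by itself says little about Wnt3.

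Wnt9a, a ligand known from joint and cartilage development, followed the same course. The untreated 0 h libraries held 0.198, 0.345 and 0.136 FPKM, those at 0.5 h 0.266, 0.289 and 0.103, and those at 2 h 0.290, 0.381 and 0.252. All of these overlap. At 4 h the values were 1.53, 2.02 and 1.57 FPKM and at 6 h 2.73, 2.26 and 2.95, which is 7.54-fold and 11.7-fold the untreated mean. Both groups lay wholly above untreated 0 h, and the log2 differences were 1.14 ± 0.092 (limma adjusted p 4.56e-09) and 1.57 ± 0.092 (adjusted p 1.24e-11). Wnt9a was at 1.17, 1.34 and 1.35 FPKM at 8 h and at 0.866, 1.00 and 0.740 at 10 h, lower than at 6 h but still above every untreated library. At 24 h the treated libraries held 0.334, 0.244 and 0.334 FPKM and the untreated ones 0.228, 0.158 and 0.100. These do not overlap either, and the difference of 0.17 did not pass the test (adjusted p 0.212). The rise began between 2 h and 4 h for both ligands, with steps of 0.92 for Wnt3 (adjusted p 6.09e-08) and 1.05 for Wnt9a (adjusted p 2.68e-08). Over the 9 group means the 2 ligands had r = 0.973, a description over 9 points that share libraries.

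**Figure D2:**
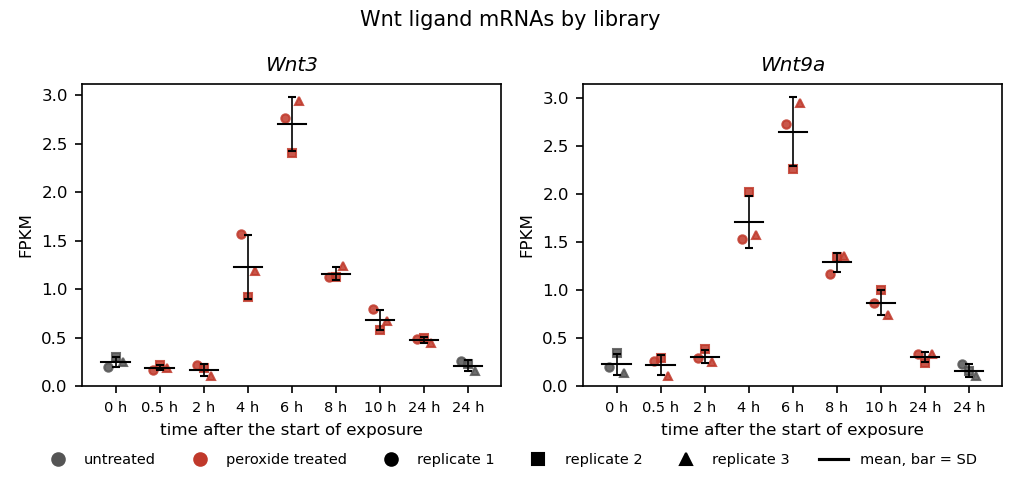
FPKM of Wnt3 and Wnt9a in each of the 27 libraries (symbols are replicates, black lines the mean and bars the SD of 3). Grey is untreated (0 h at the left, 24 h at the right) and red is peroxide treated; both ligands are below 0.4 FPKM until 2 h, near 2.7 FPKM at 6 h and lower at each later time.

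Both ligand genes lie on chromosome 11 (GRCm38, GENCODE M21), Wnt3 at 103774150 to 103817957 and Wnt9a at 59306928 to 59333552, each on the plus strand beside another Wnt gene on the minus strand. Wnt9b ends 24328 bases before Wnt3, and Wnt3a ends 16175 bases before Wnt9a, with 0 protein-coding genes between the genes of a pair. Wnt9b stayed at 0 to 0.149 FPKM in all libraries. Wnt3a, whose protein is widely used to activate the pathway, rose from 0.633, 0.869 and 0.555 FPKM at 0 h to 1.74, 2.31 and 1.96 at 6 h. The groups do not overlap, and the difference was 0.83 ± 0.12 (limma adjusted p 8.17e-06). Like Wnt3 and Wnt9a, Wnt3a was still higher at 10 h, at 1.54, 1.23 and 2.24 FPKM (0.65, adjusted p 0.000304). Wnt8b, which did not pass the filter and was chosen after its values were seen, went from a mean of 0.0717 FPKM at 0 h to 0.835 at 6 h and back to 0.193 at 10 h. In all, 6 of the 10 members are on chromosome 11 (Axin2, Tcf7, Notum, Rnf43, Wnt3 and Wnt9a), where 7.95% of the tested genes lie; these genes were chosen for their function, and their shared chromosome was not tested.

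Tcf7 encodes TCF-1, a DNA-binding partner of beta-catenin, and was after Notum the most abundant member in untreated cells. It lies on chromosome 11 from 52252371 to 52283014. The untreated 0 h libraries had 13.1, 13.3 and 9.93 FPKM, with replicate 3, 1 of the libraries that stand apart, the lowest of all 27. The level was 13.0 to 13.6 FPKM at 4 h, 13.9 to 14.5 at 6 h, 17.4, 18.2 and 17.6 at 8 h, and 20.6, 20.1 and 20.4 at 10 h. At 8 h and 10 h every library exceeded every library of the untreated groups. The differences were 0.53 ± 0.081 at 8 h (limma adjusted p 2.43e-05) and 0.72 ± 0.081 at 10 h (adjusted p 1.06e-06), or 1.47-fold and 1.68-fold in mean FPKM. Without the 4 libraries that stand apart they were 0.41 and 0.59 (limma adjusted p 2.3e-06 and 6.71e-08). In the authors' deposited table the q-value of Tcf7 was 0.6365 at 6 h, 0.1792 at 8 h and 0.02922 at 10 h. Tcf7 was marked there at none of these times. The smaller difference called at 6 h, 0.23 (adjusted p 0.0298), dropped to 0.10 without untreated 0 h replicate 3 (adjusted p 0.232) and also lost its call when any of the 6 h libraries was left out. At 24 h Tcf7 was at 14.2, 14.5 and 15.1 FPKM in treated cells and 12.1, 13.2 and 12.8 in untreated ones, groups that do not overlap. The difference of 0.19 was not called (adjusted p 0.121). It was called without untreated 0 h replicate 3 (limma adjusted p 0.0221) and without the 4 libraries (adjusted p 0.000825), with its size the same. None of those libraries belongs to the 24 h groups, while the estimate of the spread and the set of genes tested changed. Calls over all genes at 24 h went from 1757 of 13614 to 3739 of 13557 and 6967 of 13426 in these fits.

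Lef1, on chromosome 3 from 131110471 to 131224356, encodes the other factor of this family among the members and was expressed at a far lower level. It was at 0.217, 0.287 and 0.150 FPKM at untreated 0 h, 0.318, 0.357 and 0.482 at 8 h and 0.693, 0.575 and 0.491 at 10 h. All 8 h and 10 h libraries lay above all untreated 0 h libraries. In the fit of all 37203 genes without the filter, in which 16.3% of genes were called at 8 h and 13% at 10 h, Lef1 was higher by 0.19 ± 0.053 at 8 h (limma adjusted p 0.0193) and by 0.38 ± 0.053 at 10 h (adjusted p 4.39e-05). In the authors' deposited table the q-value of Lef1 was 0.2837 at 8 h and 0.001799 at 10 h. At 24 h it was at 0.272, 0.254 and 0.214 FPKM in treated cells, beside 0.282, 0.368 and 0.260 in untreated ones, which overlap.

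Axin2, on chromosome 11 from 108920349 to 108950783, encodes a scaffold of the destruction complex and is a standard target gene and feedback inhibitor of the pathway. Sp5, on chromosome 2 from 70474923 to 70477729, encodes a zinc-finger transcription factor and is another direct target. Their promoters are shown because these 2 genes rose and fell together in the data. A search was made in the 250 bases before each RefSeq transcription start (GRCm38.p6) for the TCF/LEF core, spelled CTTTG followed by AA, AT, TA or TT, on both strands. Capitals mark the matches, none of which overlaps another.
Axin2, chr11:108920099-108920348, plus strand: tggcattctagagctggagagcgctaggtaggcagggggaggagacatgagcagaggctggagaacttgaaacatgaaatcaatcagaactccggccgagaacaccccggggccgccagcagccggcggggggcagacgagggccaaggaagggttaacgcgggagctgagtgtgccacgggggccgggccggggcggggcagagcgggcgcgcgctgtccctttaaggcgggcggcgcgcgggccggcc
Sp5, chr2:70474673-70474922, plus strand: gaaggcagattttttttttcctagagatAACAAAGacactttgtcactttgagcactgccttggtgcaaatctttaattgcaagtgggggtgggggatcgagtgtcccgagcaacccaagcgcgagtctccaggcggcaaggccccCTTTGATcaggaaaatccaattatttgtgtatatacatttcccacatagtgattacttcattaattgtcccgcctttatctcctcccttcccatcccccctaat
Dkk1, chr19:30549588-30549613, minus strand, part of the window: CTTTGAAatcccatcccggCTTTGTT
The Sp5 window holds 2 matches, CTTTGAT beginning 104 bases before the start and AACAAAG, the reverse complement of CTTTGTT, 222 bases before it. In the Dkk1 window there are also 2, 117 and 98 bases before the RefSeq start, inside the first exon as GENCODE draws it, so only these 26 bases are printed. No other member window holds 2, so the printed sequences favour windows with matches. Dkk1 was not called at 8 h or 10 h, when Axin2 and Sp5 were high. The Axin2 window holds 0, which says only that these letters are not in it. Of 32851 RefSeq windows of this length, 14.8% hold at least 1 match and 1.43% at least 2. Windows were found for 9 members (14 windows), and 3 of the 14 hold a match, the third being 1 of the 4 Lef1 windows.

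Axin2 fell first and rose later. Its untreated 0 h libraries had 3.77, 4.08 and 2.85 FPKM, the 0.5 h libraries 4.20, 3.76 and 4.06, and the 2 h libraries 2.21, 3.50 and 3.34. At 4 h the level was 2.07, 2.12 and 2.10 FPKM, below every untreated library, a difference of -0.55 ± 0.113 (limma adjusted p 0.000809). At 6 h Axin2 was back within the untreated range at 3.88, 3.47 and 3.78 FPKM (difference 0.05, adjusted p 0.738). It then rose 2.08-fold within 2 h, to 7.88, 8.42 and 6.85 FPKM at 8 h, and stood at 8.11, 7.69 and 6.62 at 10 h. All 6 of these libraries exceeded every other library of the series. The mean was 2.16-fold the untreated level at 8 h (0.94 ± 0.113, adjusted p 1.21e-06) and 2.10-fold at 10 h (0.90 ± 0.113, adjusted p 4.13e-06), and the step from 6 h to 8 h was 0.89 (adjusted p 4.99e-06). At 24 h treated cells had 3.72, 3.70 and 4.21 FPKM and untreated cells 3.55, 3.95 and 3.44, which overlap (0.07, adjusted p 0.678). Without the 4 libraries that stand apart, the differences were -0.67 at 4 h, 0.89 at 8 h and 0.86 at 10 h, with adjusted p of 1.47e-07, 1.9e-08 and 6.2e-08. With only the compared libraries in the fit, the fall at 4 h lost its call (adjusted p 0.0582). With each library corrected for GC content and transcript length, the difference at 4 h was -0.64 for Axin2 (adjusted p 9.93e-06), -0.69 for Sp5 (adjusted p 5.37e-07), -0.45 for Notum, 0.76 for Wnt3 and 1.07 for Wnt9a, each called.

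Sp5 went through the same fall and rise over a wider range. It was at 1.52, 1.62 and 2.31 FPKM at untreated 0 h, 1.47, 1.61 and 1.45 at 0.5 h, and 1.59, 1.2 and 0.904 at 2 h. At 4 h it was at 0.766, 0.761 and 0.551 FPKM, 2.62-fold under the untreated mean and below every untreated library (-0.73 ± 0.128, limma adjusted p 0.000168). At 6 h it was at 2.34, 2.43 and 2.73 FPKM, just above the highest untreated 0 h library and overlapping those at untreated 24 h. That difference of 0.32 passed the limma test narrowly (adjusted p 0.0484), and 26 of 39 other ways of fitting it gave an adjusted p over the threshold. In the authors' deposited table the q-value of Sp5 at 6 h was 0.5822. At 8 h Sp5 reached 6.90, 6.75 and 9.46 FPKM and at 10 h 7.67, 7.12 and 9.05, the highest values in either group being replicate 3, which stands apart. These groups are far above all other libraries, 4.24-fold and 4.37-fold over the untreated mean. The differences were 1.63 ± 0.128 (adjusted p 3.32e-09) and 1.67 ± 0.128 (adjusted p 4.44e-09), and 1.61 and 1.71 without the 4 libraries (adjusted p 9.4e-10 and 9.51e-10). At 24 h the treated libraries had 2.11, 1.84 and 1.63 FPKM and the untreated ones 2.04, 1.91 and 2.42, which overlap (-0.13, adjusted p 0.487). Of the 3 tested members that rose at 8 h and 10 h without having risen at 4 h, Sp5 thus changed most on the log2 scale and Tcf7 least.

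**Figure D3:**
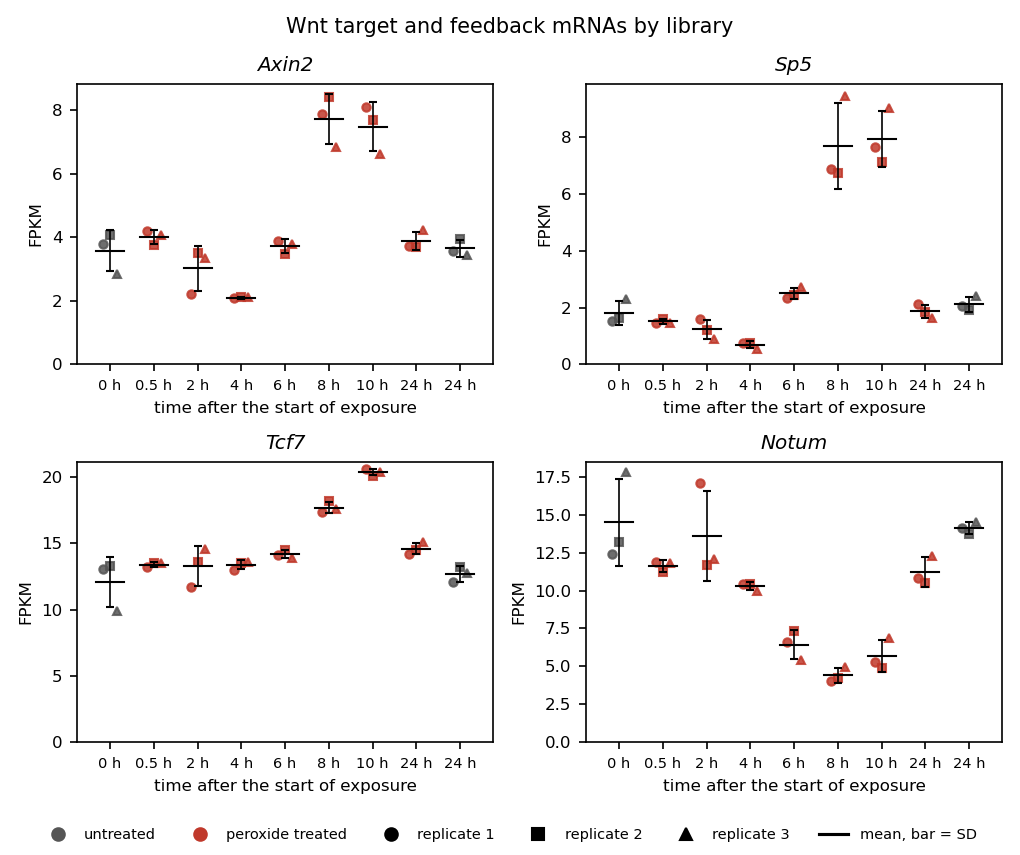
FPKM of Axin2, Sp5, Tcf7 and Notum in each of the 27 libraries (symbols are replicates, black lines the mean and bars the SD of 3; grey untreated, red peroxide treated). Axin2 and Sp5 dip at 4 h and stand above all other groups at 8 h and 10 h, Tcf7 climbs from 6 h to 10 h, and Notum runs down to 4.41 FPKM at 8 h.

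At 8 h the hepatocyte markers summed to 64.9 and 57.4 FPKM in replicates 1 and 2 and to 2.02 in replicate 3. At 10 h they summed to 1.28 to 1.99, and the means of Axin2, Sp5 and Tcf7 were 7.47, 7.95 and 20.4 FPKM. The 5 astrocyte markers summed to 12.9 to 14.6 FPKM at 8 h and 6.83 to 12.2 at 10 h. Their sum was 2.42 to 3.36 at untreated 0 h and 6.71 to 7.21 at untreated 24 h. Among them Lcn2 was at 2.67, 3.65 and 2.80 FPKM at 8 h and 0 to 0.0206 at untreated 0 h. Lcn2 was also at 2.14, 2.42 and 2.65 FPKM at untreated 24 h. At 10 h Lcn2 was at 2.73, 0 and 2.51 FPKM and Gfap at 2.13, 0.262 and 2.16. Aldh1l1 had means of 7.72 FPKM at 8 h, 2.49 at untreated 0 h and 2.24 at untreated 24 h. S100b had means of 0.168, 0.124 and 0.0481 FPKM in these 3 groups. The 6 primitive streak and mesoderm markers include the Wnt target T. Their summed level, like Axin2 and Sp5, was low at 4 h and high at 10 h. It was 4.73 to 5.28 FPKM at untreated 0 h, 1.63 to 2.24 at 4 h, 5.26 to 6.39 at 8 h and 9.12 to 9.83 at 10 h, then 5.31 to 5.94 at 24 h in treated and 5.56 to 5.93 in untreated cells. Most of it was Eomes, with means of 3.42 FPKM at 0 h, 0.986 at 4 h and 5.72 at 10 h. The single markers differed: Tbx6 and Mesp1 had higher means at 4 h than at 0 h (0.316 against 0.0885 and 0.247 against 0.0517 FPKM), and Gsc a lower one at 10 h (0.367 against 0.801). At 10 h 2 of the 6 were at 1 FPKM or more in all 3 libraries, against 1 of 6 at untreated 0 h, and Mesp1 was at 0 in all 3 untreated 24 h libraries. The 6 trophectoderm markers summed to 8.28 to 10.3 FPKM at untreated 0 h, 4.56 to 5.33 at 4 h, 5.24 to 5.66 at 6 h, 9.99 to 10.6 at 8 h and 10.4 to 11.2 at 10 h. Most of that was Tfap2c (mean 7.99 FPKM at 0 h and 4.52 at 4 h), the 1 of the 6 at 1 FPKM or more in all 3 libraries at 0 h, and Elf5 was at 0 in all 3 untreated 24 h libraries. The part of these 4 marker lists in the change of Axin2, Sp5 and Tcf7 was not tested. In bulk RNA a change in the number of cells of a type and a change of RNA per cell cannot be told apart.

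Nkd1, on chromosome 8 from 88521354 to 88594884, encodes an inhibitor that binds Dishevelled, and is a target gene in many tissues. It was at 0.282, 0.290 and 0.383 FPKM at untreated 0 h and at 0.737, 0.650 and 0.848 at 10 h, where all 3 libraries exceeded the untreated ones. The difference at 10 h was 0.40 ± 0.081 (limma without the filter, adjusted p 0.00167), while the q-value in the authors' deposited table was 0.05477. At 4 h to 8 h its mean was 0.411 to 0.513 FPKM and no difference was called. At 24 h Nkd1 was at 0.233, 0.203 and 0.240 FPKM in treated and 0.350, 0.217 and 0.356 in untreated cells, which overlap.

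Notum was the 1 tested member that was lower at 6, 8 and 10 h. It encodes a secreted enzyme that removes the lipid from Wnt proteins and so inactivates them, and it lies on chromosome 11 from 120653788 to 120661175. Untreated 0 h libraries had 12.4, 13.2 and 17.8 FPKM, 2 h libraries 17.1, 11.7 and 12.1, and 4 h libraries 10.4, 10.4 and 10.0. The high values of 17.8 and 17.1 belong to untreated 0 h replicate 3 and treated 2 h replicate 1, both of which stand apart. Notum was then at 6.61, 7.31 and 5.40 FPKM at 6 h, 4.01, 4.26 and 4.94 at 8 h, and 5.26, 4.91 and 6.88 at 10 h. All 9 of these libraries lay below every other library of the series. The mean was 3.29-fold under the untreated level at 8 h, and the differences at 6, 8 and 10 h were -1.05, -1.51 and -1.21 (SE 0.136, limma adjusted p 1.98e-06, 2.26e-08 and 9.97e-07). Without the 4 libraries they were -0.90, -1.43 and -1.19. The smaller fall called at 4 h, -0.44 (adjusted p 0.0187), was -0.295 without untreated 0 h replicate 3 and no longer called (adjusted p 0.1). It also lost its call without treated 4 h replicate 3 (limma adjusted p 0.0591), and the q-value in the authors' deposited table was 0.192. At 24 h Notum was at 10.8, 10.5 and 12.3 FPKM in treated and 14.1, 13.7 and 14.5 in untreated cells, groups that do not overlap. That difference of -0.31 was not called (limma adjusted p 0.127), and it was called without the 4 libraries (adjusted p 0.00186). The fit without them called 6967 of 13426 genes at 24 h, against 1757 of 13614 with all libraries. In the authors' deposited table the q-value of Notum at 24 h was 0.0002511, though Notum was not marked there.

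Dkk1, on chromosome 19 from 30545863 to 30549665, encodes a secreted inhibitor that binds LRP co-receptors, and fell by 4 h. It was at 0.343, 0.274 and 0.449 FPKM at untreated 0 h, 0.124, 0.159 and 0.240 at 2 h, 0.0236, 0.0220 and 0.180 at 4 h and 0.0798, 0.152 and 0.136 at 6 h. All libraries from 2 h to 6 h lay below all untreated 0 h libraries; at 2 h this kind of separation was found in 6.91% of the tested genes. In the fit without the filter the 2 h difference was -0.21 and was not called (limma adjusted p 0.495, all genes 0.395% called). The same fit, in which 10.7% of genes were called at 4 h and 18.8% at 6 h, gave differences of -0.34 at 4 h (limma adjusted p 0.00638) and -0.27 at 6 h (adjusted p 0.0182), with SE 0.079. In the authors' deposited table the q-value was 0.07684 at 4 h and 0.03458 at 6 h. By 10 h Dkk1 was at 0.472, 0.358 and 0.598 FPKM, overlapping the untreated libraries. At 24 h treated cells had 0.703, 0.676 and 0.553 FPKM and untreated cells 0.323, 0.415 and 0.487, which do not overlap (0.22, adjusted p 0.124). So Dkk1, unlike Lef1, Nkd1 and Rnf43, was not called at 10 h.

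Rnf43, on chromosome 11 from 87662722 to 87735539, encodes a membrane ubiquitin ligase that takes Frizzled receptors off the cell surface. Its median over the 27 libraries, 0.0852 FPKM, was the lowest of the 10 members. The untreated 0 h libraries held 0.0493, 0.0247 and 0.0157 FPKM, those at 6 h 0.233, 0.111 and 0.111, those at 8 h 0.140, 0.140 and 0.0709, and those at 10 h 0.190, 0.189 and 0.181. None of the treated libraries at these times overlapped the untreated 0 h ones. Treated 8 h replicate 3 lay within the range of the untreated 24 h libraries, whose mean was 2.43-fold that at untreated 0 h. That difference between the untreated groups was 0.06 and was not called. The differences from untreated 0 h were 0.16 at 6 h, 0.12 at 8 h and 0.20 at 10 h (SE 0.038, limma without the filter, adjusted p 0.00381, 0.0375 and 0.000722). The authors' deposited table gave Rnf43 a q-value of 0.003373 at 6 h, 0.05832 at 8 h and 0.0003228 at 10 h. At 24 h the levels were 0.124, 0.195 and 0.161 FPKM in treated and 0.107, 0.0824 and 0.0282 in untreated cells, which do not overlap, and the difference was not called (0.11, adjusted p 0.101). At levels this low a library's value rests on few fragments, whose number FPKM does not give.

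**Figure D4:**
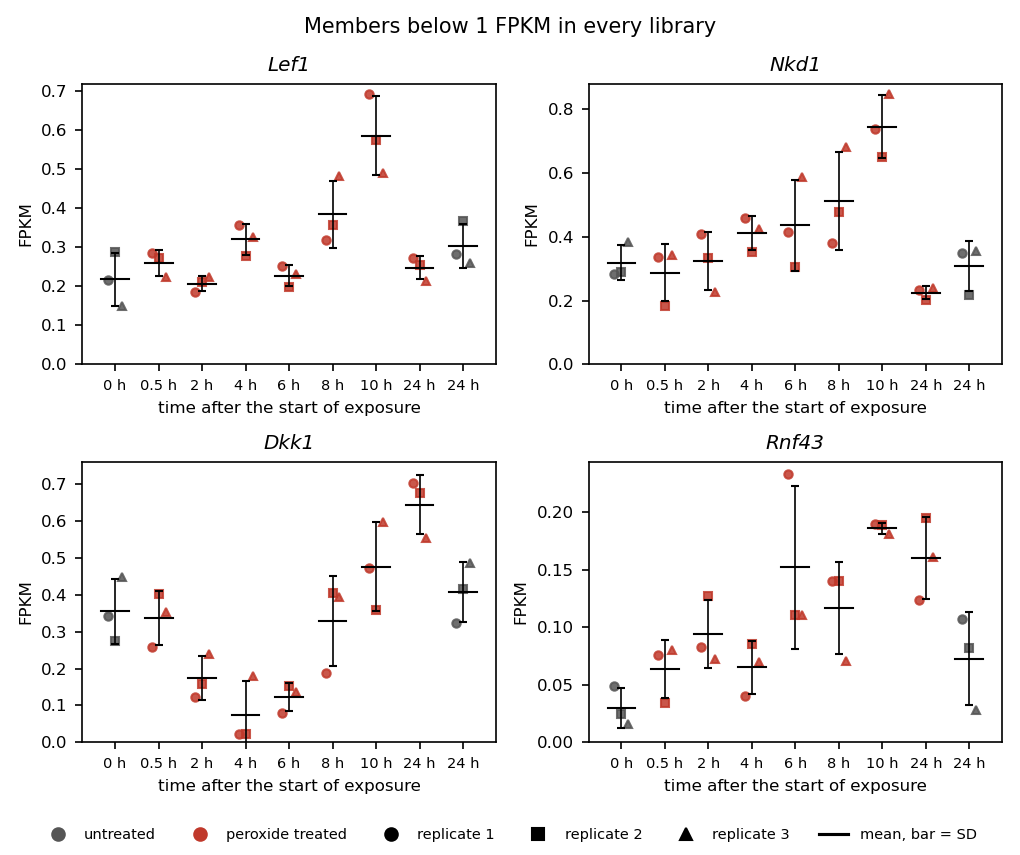
FPKM of Lef1, Nkd1, Dkk1 and Rnf43 in each of the 27 libraries (symbols are replicates, black lines the mean and bars the SD of 3; grey untreated, red peroxide treated). All values are below 1 FPKM; Lef1, Nkd1 and Rnf43 have their highest group mean at 10 h, and Dkk1 has its lowest at 4 h.

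Between 10 h and 24 h the tested members moved back towards the untreated levels. In treated cells over this step Axin2 fell by 0.80 (limma adjusted p 3.08e-05), Sp5 by 1.64 (adjusted p 1.19e-08), Tcf7 by 0.45 (adjusted p 0.000342) and Wnt9a by 0.52 (adjusted p 0.000323), while Notum rose by 0.88 (adjusted p 7.76e-05). Wnt3 differed by -0.19 over the same step and was not called (adjusted p 0.139), having already fallen between 6 h and 8 h. So 5 of 6 members were called in this step, against 19.3% of all tested genes. At 24 h the level of Axin2 and of Sp5 overlapped that of untreated cells, and Wnt3 was the only member called. The 24 h effect and the 10 h effect differed by the test of that difference for 5 of 6 members, against 8.7% of all genes.

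The other genes of the pathway were counted from a list of 98 in 7 roles, of which 59 passed the filter. At 4 h 6 of the 59 rose and 16 fell, at 6 h 8 rose and 21 fell, at 8 h 15 rose and 10 fell, and at 10 h 17 rose and 8 fell. In percent these are 37.3, 49.2, 42.4 and 42.4 of the list, beside 26.3, 42.3, 40.7 and 31.7 of all genes. The list thus changed about as often as other genes at 6 h and 8 h, and the share of its calls that were rises went up between 6 h and 8 h as it did over the whole table. At 24 h 7 rose and 3 fell, 16.9% of the list beside 12.9% of all genes. The median difference of the 59 genes was -0.13 at 4 h and 0.22 at 10 h, beside 0.01 and 0.11 over all genes. Of the pathway genes named below, 24 were refitted without the 4 libraries that stand apart. All 57 of their called differences were called again, as were 32 of the 135 that had not been called. Calls over all genes went from 26.3% to 51.1% at 4 h. They went from 1757 to 6967 genes at 24 h and from 96 to 4105 between the untreated groups. Those 32 are given with their genes, apart from Wnt6 at 8 h, Dkkl1 at 4, 6 and 24 h, Kremen1 at 24 h, Ccnd1 at 4 h and 24 h (all in the direction of their values with all libraries) and Znrf3 between the untreated groups.

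Among ligands and their secretion, Wnt5b, a ligand linked mostly to signalling without beta-catenin, fell from a mean of 1.99 FPKM to 0.524 at 6 h (-0.97 ± 0.1, limma adjusted p 7.09e-08), when Wnt3 and Wnt9a were highest. It was back at 1.77 FPKM at 8 h and was called lower again at 24 h, against untreated cells of that time (-0.356). Wnt6 was called lower at 4 h (-0.509). Wnt6 rose late, from 1.64 FPKM at 0 h to 3.25 at 10 h (adjusted p 0.0021), and at 24 h was at 3.14 FPKM in treated and 1.27 in untreated cells (0.88, adjusted p 0.00101). Porcn, which attaches the lipid to Wnt proteins, fell from 9.42 to 5.06 FPKM at 10 h (-0.77, adjusted p 7.66e-05) and was still lower at 24 h (-0.43, adjusted p 0.0293). Wls, the carrier of Wnt proteins to the surface, was higher at 10 h (0.42, adjusted p 0.0124) and at 24 h, at 2.13 FPKM in treated and 0.956 in untreated cells (0.68, adjusted p 0.00094).

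Of 11 tested receptors and co-receptors, 6 fell and 2 rose at 4 h, and 1 fell and 2 rose at 10 h. These are 72.7% and 27.3% of the list, beside 26.3% and 31.7% of all genes. The Frizzled genes Fzd5, Fzd9 and Fzd2 were lowest at 4 to 6 h: Fzd5 went from 19.1 to 9.36 FPKM at 4 h (adjusted p 0.00134), Fzd9 from 1.95 to 0.590 at 6 h (adjusted p 4.02e-06) and Fzd2 from 1.41 to 0.371 at 6 h (adjusted p 4.24e-06), all by limma. Fzd10 and Fzd6, named after their values were seen, were instead called higher at 4 h, with means of 14.3 against 9.02 and 1.43 against 0.879 FPKM. Fzd10 was also the 1 receptor gene called between the untreated groups, at 13.4 FPKM at 24 h (adjusted p 0.0196). The co-receptor gene Lrp6 was at 5.29, 5.15 and 2.23 FPKM at untreated 0 h, the last value being replicate 3, and was not called at any time with all libraries. In the fit without the 4 libraries Lrp6 was lower at 4 h (-0.47, adjusted p 0.00132) and higher at 24 h (0.48, adjusted p 0.000488), and between the untreated groups it differed by -0.39 (adjusted p 0.0114). Likewise Fzd5 was then also called lower at 2, 6, 8 and 10 h and between the untreated groups, by -0.315 to -0.512. Among 15 tested cytoplasmic components Dvl2 and Dvl1, which pass the signal on from Frizzled, rose from 4 h to 10 h, Dvl2 from 12.4 to 20.7 FPKM at 6 h (adjusted p 2.71e-08) and Dvl1 from 6.10 to 8.97 at 8 h (adjusted p 5.9e-06). At 24 h Dvl2 was called lower than in untreated cells (-0.257). Tnks2, a tankyrase that marks Axin proteins for breakdown, was called higher at 6 h only (39.4 against 23.0 FPKM, 0.845, limma adjusted p 0.0162). The 6 h difference of Tnks2 was 0.46 without the 4 libraries, and it was also called higher at 8 h and 24 h (0.28 and 0.335). Axin1 and Gsk3b were called at no time with all libraries, with means of 14 to 18.5 and 3.50 to 6.87 FPKM from 2 h to 24 h. Gsk3b was at 6.50, 6.35 and 3.41 FPKM at untreated 0 h, and without the 4 libraries it was called lower at 4 h (-0.72, adjusted p 3.76e-07) and 6 h (-0.465) and higher at 8 h (0.21) and 24 h (0.43), besides -0.35 between the untreated groups. Axin1 was then called lower at 4 h (-0.29, adjusted p 0.000582).

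Beta-catenin mRNA itself did not pass the test at any time with all libraries: Ctnnb1 had a mean of 121 FPKM at untreated 0 h and 126 to 154 from 2 h to 24 h, with SE 0.182. It was called at 24 h alone when the 4 libraries were left out (0.24, adjusted p 0.00113). Tcf7l1 encodes the TCF protein that mostly represses target genes in embryonic stem cells, and it was lower from 4 h to 10 h. Most of its fall was present by 6 h (-0.329 at 4 h and -1.001 at 6 h), while the larger rise of Tcf7 came at 8 h and 10 h. Tcf7l1 was at 26.4, 24.4 and 24.9 FPKM at untreated 0 h and 12, 12.1 and 12.2 at 6 h. It was at 10.7, 11.3 and 11.9 FPKM at 8 h, and 14.3, 12.9 and 13.6 at 10 h. The groups do not overlap, and the difference at 8 h was -1.09 ± 0.063 (limma adjusted p 4.94e-11). In mean FPKM Tcf7l1 was thus above Tcf7 in untreated cells (25.2 against 12.1) and below it at 8 h (11.3 against 17.7), a comparison of levels per length. At 24 h Tcf7l1 was at 22.5 FPKM in treated and 23.1 in untreated cells (adjusted p 0.717). Of the Groucho-type co-repressors, Tle4 fell at 4 h (19.0 to 10.5 FPKM, adjusted p 0.0078) and Tle5 was called lower at 10 h (63.4 to 31.2 FPKM, -0.86, adjusted p 0.0208). The untreated 0 h mean of Tle5 rests on 40.2, 42.0 and 108 FPKM, and without the 4 libraries its 10 h difference was -0.53 (adjusted p 0.000482), with calls also at 8 h (-0.36), at 24 h (-0.45) and between the untreated groups (0.41). Tle4 was then also called lower at 8 h (-0.34), higher at 24 h (0.47) and lower between the untreated groups (-0.32).

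Secreted antagonists were not uniform. Sfrp1, which binds Wnt proteins outside the cell, fell from 15.5 to 7.01 FPKM at 8 h (-1.03 ± 0.115, limma adjusted p 4.15e-07) and was back at 16.7 at 24 h. Kremen1, a co-receptor of Dkk proteins, rose from 1.49 to 3.66 FPKM at 6 h (0.91, adjusted p 2.97e-08), and Dkkl1, a Dickkopf-like gene, from 1.35 to 3.43 at 10 h (0.92, adjusted p 2.47e-05). Of the 8 tested genes of this list, 5 fell and 1 rose at 6 h, and 2 fell and 2 rose at 10 h, 75% and 50% of them beside 42.3% and 31.7% of all genes.

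Of 9 tested other feedback genes and targets, 3 fell at 4 h, 1 rose and 5 fell at 6 h, 2 rose and 2 fell at 8 h, and 3 rose and 2 fell at 10 h. In percent these are 33.3, 66.7, 44.4 and 55.6, beside 26.3, 42.3, 40.7 and 31.7 of all genes. T, the brachyury gene of the primitive streak, was at 0.210, 0.373 and 0.217 FPKM at 0 h, 0.648, 0.817 and 0.910 at 8 h and 2.12, 2.55 and 2.47 at 10 h. It rose 8.93-fold in mean FPKM by 10 h (1.42 ± 0.082, limma adjusted p 1.08e-10), without the early fall of Axin2 and Sp5 being called for it at 4 h (-0.10, adjusted p 0.449). T reached 1 FPKM in the 3 libraries at 10 h alone, so it passed the filter only through the group in which it was high, and without the 4 libraries it was not tested. Myc fell at 2 h to 8 h, most at 4 h (12.9 to 5.08 FPKM, -1.19, adjusted p 5.22e-10), and at 10 h its difference was 0.14 (adjusted p 0.201). Ccnd1, which encodes cyclin D1, was called lower at 6, 8 and 10 h. It was at 15.9 FPKM at 8 h against 34.2 at 0 h (-1.05, limma adjusted p 6.42e-07). The difference was already -0.995 at 6 h, and without the 4 libraries it was -1.145 at 6 h and -1.118 at 8 h. Znrf3, the partner of Rnf43, was called at 24 h only with all libraries (2.53 FPKM in treated, 1.68 in untreated cells, adjusted p 0.0244).

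**Figure D5:**
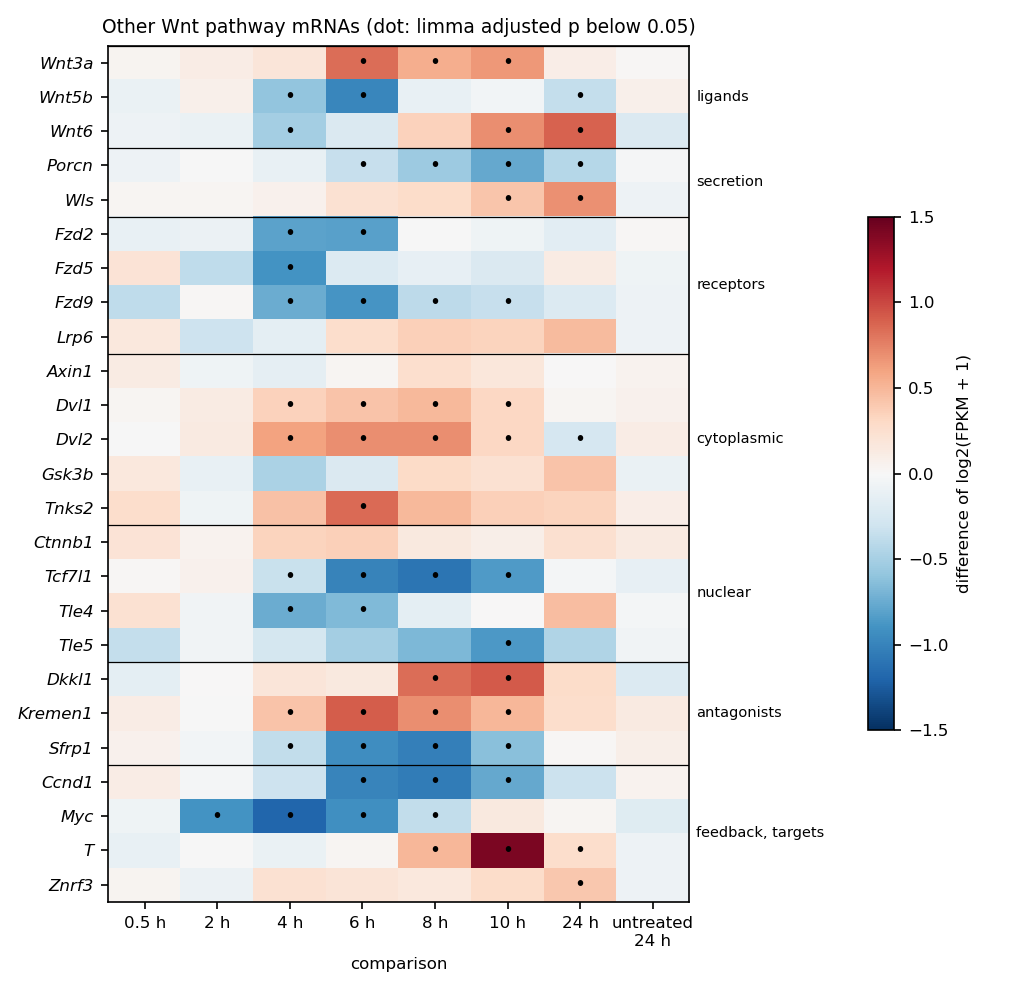
Difference of mean log2(FPKM + 1) for 25 other Wnt pathway genes (rows, grouped by role) in 8 comparisons (columns: treated times against untreated cells, and untreated 24 h against untreated 0 h); red is higher, blue lower, and a dot marks a limma adjusted p below 0.05. Tcf7l1, Sfrp1 and Ccnd1 are low at 6 to 10 h, T is high at 10 h, Fzd5, Fzd9 and Fzd2 are lowest at 4 to 6 h, and none of these 25 genes has a dot between the untreated groups.

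The genes closest in pattern to each tested member were sought by Pearson r over the 9 group means, among the 8192 or 8193 tested genes other than the member with a mean of 5 FPKM or more in some group. For Axin2 these were Lpcat1 (r = 0.984), Atxn7l3b and Snn (both 0.981), and for Sp5 Srxn1 (0.974), Axin2 (0.972) and Snn (0.964). So Axin2 was the second nearest gene to Sp5, beside Srxn1, which encodes the antioxidant enzyme sulfiredoxin. The nearest genes to Tcf7 were Mpv17 (0.975), Ppp3cb and Id1 (both 0.968), and to Notum Marcksl1 (0.991), Tbl3 (0.99) and Pttg1 (0.989). Among the genes nearest to Wnt3 were Pard6g and Clcn7 (both 0.991), and Wnt9a was nearest to Ahnak2, Ppm1a and Gm49654 (each 0.995). With 9 points that share libraries and many genes searched, such values are a description of shape.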

How the data were processed

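Poly(A) RNA libraries were made with a stranded TruSeq procedure and sequenced in paired-end mode, per the labels' protocols. Tools named by the submitters' processing notes are HISAT2, StringTie, cutadapt, FastQC and edgeR, on mm10, with settings and annotation not given in the sources used here. FPKM tables came from the authors: the 7 deposited tables give FPKM for each library, and ratio (fold), log2, p-value and q-value columns, per the file headers. Only FPKM entered the tests; q-values are quoted as the authors'. Tables were joined by gene identifier.

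limma 3.58.1 (R 4.3.3) was fitted to log2(FPKM + 1) with a mean-variance trend, 27 libraries, 1 mean for each of 9 groups, and tested on simulated data. Each contrast was adjusted by Benjamini-Hochberg over 13614 genes. The members and gene lists were chosen with earlier results of these data known. All 10 members are named. One gene with a pattern like that of Wnt3 is not reported here. Of each pathway list the text names up to 3 called genes with the largest difference from 2 h to 24 h at a mean of 1 FPKM or more, and a fixed panel (Ctnnb1, Gsk3b, Tcf7l1, Lrp6, Axin1, Znrf3, Ccnd1, Myc, T).

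The series text names 3 independent time courses and biological replicates numbered 1 to 3; whether a number marks the same time course in every group is not stated there. Deviations of same-numbered treated and control libraries correlated above 0.1 in 9 of 21 pairs, namely all 3 pairs at 8 h and at 10 h, 1 pair each at 2, 4 and 24 h, and 0 at 0.5 and 6 h; the fit has no replicate block. Alternatives were another pseudocount, filters, scaling, fewer libraries, the block, no trend and a GC and length correction.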

Additional observations from a re-analysis of the deposited data

Results flagged for a closer look

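The effect of peroxide at 24 h (against untreated 24 h) was set against that at 10 h (against untreated 0 h) in the same limma model, and the 2 effects differed for 5 of the 6 tested members, beside 8.7% of all tested genes. On the log2(FPKM + 1) scale the 24 h effect minus the 10 h effect was -1.8 for Sp5 (adjusted p 1.45e-06), -0.83 for Axin2 (adjusted p 0.00189), -0.53 for Tcf7 (adjusted p 0.00522) and -0.44 for Wnt9a (adjusted p 0.0366). For Notum, lower at 10 h, it was 0.9 (adjusted p 0.00474). The value for Wnt3 was -0.15 and was not called (adjusted p 0.588). The Wnt9a call was lost in 13 of 36 alternatives and the Tcf7 call in 1 of 38, while those of Sp5, Axin2 and Notum were kept in each of 38. These comparisons use different untreated groups, and time in culture is matched in the 24 h one alone.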

How the results depend on the processing

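Of 23 called member differences from untreated cells, 17 kept their call in every alternative that tested the gene. None of the 1833 alternatives turned a called direction. Those that lost a call in some alternative were Axin2 at 4 h, Sp5 at 6 h, Tcf7 at 6 h and 8 h, Notum at 4 h and Wnt3 at 24 h. Tcf7 at 8 h lost it (limma adjusted p 0.0546) with only the compared libraries in the fit. Wnt3 at 4, 10 and 24 h and Wnt9a at 10 h did not pass the filter in that setting and were not tested there. Without the 4 libraries that stand apart, 22 of the 23 were still called. The number of members changed at 2 h became 1 (Sp5) with the GC and length correction, which was added after seeing the data. At 4 h it was 3 with a filter of 5 FPKM, which tests 4 members, and 2 with only the compared libraries. At 6 h these settings gave 2 and 3, and leaving out 1 library at a time gave 3 to 5. At 24 h the number was 0 with no filter or a filter of 5 FPKM, 2 with median-of-ratios scaling alone or with the replicate block, 2 with only the compared libraries, 3 without the 4 libraries and 0 to 2 with 1 library left out. For untreated 24 h it was 1 (Sp5) without the 4 libraries. Also without them, 2 pathway genes that were not called changed sign between the untreated groups and were then called, Tnks2 (-0.287) and Tle5 (0.412); the cause was not tested.

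With the replicate block, Sp5 at 6 h was no longer called (adjusted p 0.0505) and no other member call changed. Over all genes, only the compared libraries gave 5 calls at 2 h, 993 at 4 h, 2650 at 6 h, 1522 at 8 h, 480 at 10 h and 9 between the untreated groups. Without the 4 libraries there were 47 at 0.5 h, 340 at 2 h, 6856 at 4 h, 6967 at 24 h and 4105 between the untreated groups. Scaling moved the median of all genes by less than 0.1. FPKM hides depth, so the SE of the 4 members under 1 FPKM does not use read numbers. It rests on the spread between libraries within groups, pooled over the 9 groups and drawn by limma towards that of other genes.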
